A study of Mus musculus with 18 samples.

Results

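Snai1, Snai2, Twist1, Twist2, Cdh1, Cdh2, Cdh11 and Vim are genes by which the epithelial or mesenchymal state of cells is commonly read, and their transcripts are described here in cells labelled as HL-1, a mouse atrial cardiomyocyte line. They were taken by symbol from the read-count table and make up 8 of its 29112 genes. All 8 were found, 6 passed the filter on low counts (filterByExpr in edgeR) and 2, Twist1 and Cdh1, did not. Messenger RNA was sequenced from 18 libraries, 3 in each of 6 groups. The inhibitor group received an inhibitor of miR-200a-3p in high glucose, and the inhibitor control group its negative control in high glucose. The mimic group received miR-200a-3p mimics in high glucose, and the mimic control group their negative control in high glucose. The high glucose group was not transfected, and the vehicle group received neither high glucose nor a transfected oligonucleotide. The 4 transfected groups were harvested 48 h after transfection with HiPerFect, so they share the reagent as well as high glucose. The glucose concentration, the time in high glucose and any mock transfection of the other 2 groups are not stated in the sources used here. Nothing in the labels says whether replicate libraries were grown as separate cultures. The p-values therefore measure only how far these samples spread, and that spread may be technical.

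Snail (Snai1) and Slug (Snai2) are zinc finger repressors that bind E-box motifs, and they are best known for repressing E-cadherin (Cdh1) during the epithelial-to-mesenchymal transition. Twist1 and Twist2 are basic helix-loop-helix factors that act in the same transition and in mesoderm and muscle development. N-cadherin (Cdh2), a junction protein of heart and skeletal muscle, and cadherin-11 (Cdh11), an adhesion protein of mesenchymal cells, often take the place of E-cadherin in mesenchymal cells. Vimentin (Vim) forms the intermediate filaments of mesenchymal cells. The miR-200 family is known for repressing Zeb1 and Zeb2, a further pair of E-cadherin repressors.

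The mature microRNA that the reagents copy or block is shown first, with the mouse microRNA that shares its seed (bases 2 to 8, in capitals), because the seed sets which transcripts it can pair with. Both are RefSeq sequences on GRCm38.p6, 5′ to 3′, and miR-200a-3p lies at chr4:156054911-156054932 on the minus strand.
mmu-miR-200a-3p: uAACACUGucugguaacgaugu
mmu-miR-141-3p: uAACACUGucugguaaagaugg
The match to this seed in DNA letters is CAGTGTT. Among the 8 genes, it was found in the annotated 3′ untranslated region (UTR) of Snai2 only, once, as a 7-base match, in exon 3 of 3 at chr16:14526171-14526177 on the plus strand of GRCm39. The site is shown with its flanks, the match in capitals.
Snai2 3′ UTR site: gtggcgcaacCAGTGTTtactcaaacagaa
Of 20854 mouse 3′ UTRs searched, 23.3% held a match of 7 or 8 bases. Cdh2, Snai2 and Twist2 held 1 match of 6 bases each, and a match of 6 bases or more was found in 38.6% of all 3′ UTRs. Such a match describes the sequence and is not evidence of binding.

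The promoter of Snai1, the tested member with the widest fall between untransfected and transfected cells, is shown because Snail proteins bind the E-box CAGGTG or its reverse complement CACCTG. RefSeq promoters of 300 bases (GRCm38.p6) were at hand for Snai1, Twist1, Twist2 and Vim. Snai1 held the E-box once on either strand, 126 bases before the start site (in capitals), and the other 3 did not hold it.
Snai1 promoter, chr2:167537945-167538244, plus strand: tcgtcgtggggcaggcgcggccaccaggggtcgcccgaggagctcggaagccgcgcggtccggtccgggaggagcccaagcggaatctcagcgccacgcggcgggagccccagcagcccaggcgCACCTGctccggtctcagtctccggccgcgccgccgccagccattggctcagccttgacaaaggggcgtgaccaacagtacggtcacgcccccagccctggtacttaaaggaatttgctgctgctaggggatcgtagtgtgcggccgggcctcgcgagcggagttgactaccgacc
The motif was present in 6640 of 32851 promoters of this length (20.2%).

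Library totals ran from 33655916 to 37928790 reads, and 15074 genes were tested. Levels are counts scaled to library size by the TMM method (CPM), and 3 reads, the level that a count of 0 allows, correspond to 0.0791 to 0.0954 CPM, a floor that covers counting error only. Mimic replicate 2 stood apart from the other libraries. Its summed level of 12 macrophage markers was 1164.2 CPM, against 51.4 and 53.3 CPM in the other mimic libraries and 34.2 to 69.4 CPM in the other 5 groups. For the mimic, the members' calls and most list counts are therefore given with and without this library. Values of most named list genes are given with all libraries only. Markers of the labelled cell type were mixed. Of 12 cardiomyocyte markers 11 were listed and 6 passed the filter, and the list summed to 34.4 to 94.5 CPM a library. The atrial peptide gene Nppa had 2 reads in all 18 libraries, Myh6 reached 0.197 CPM and Actc1 0.405 CPM, while Tnnt2 stood at 15.6 to 76.2 CPM, Gata4 at 7.98 to 14.3 CPM and Mef2c at 1.84 to 16.3 CPM. Of 8 skeletal myoblast markers 7 passed, and the list summed to 1299.8 to 6309.2 CPM. Most of that sum was Des, at 1058.4 to 5949.4 CPM, so every sum of this list given below largely follows that 1 gene. Chrna1 stood at 96.5 to 145.8 CPM and Myf5 at 7.82 to 55.0 CPM. Myod1 stood at 0.649 to 2.25 CPM, Myog at 0.0288 to 2.23 CPM and Pax7 at no more than 0.231 CPM. The near absence of Nppa and Myh6 goes against the label of atrial cardiomyocytes, and the lists name no other cell type. In bulk RNA, fewer cells of a type and less RNA per cell cannot be told apart.

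Snai1 (GRCm39 chr2:167380113-167384734, plus strand) separated untransfected from transfected cells. Its level was 1.35, 1.39 and 1.49 CPM in the inhibitor libraries, against 1.83, 1.23 and 1.18 CPM in the inhibitor control libraries. The mimic libraries had 1.62, 1.78 and 2.05 CPM, against 2.62, 1.91 and 1.45 CPM in the mimic control libraries. High glucose libraries had 16.5, 14.5 and 14.7 CPM, against 14.5, 13.1 and 14.1 CPM in vehicle libraries. All 12 transfected libraries lay below all 6 untransfected ones, while the ranges of neighbouring transfected groups overlapped, as did those of high glucose and vehicle. Relative to high glucose, Snai1 fell by 2.92 ± 0.153 on the log2 scale in the mimic control (± standard error, SE; adjusted p = 3.84e-13) and by 3.42 ± 0.159 in the inhibitor control (adjusted p = 7.57e-14, edgeR's quasi-likelihood test with Benjamini-Hochberg adjustment over all tested genes). The lowest library held 41 Snai1 reads and the highest 580.

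Snai2 (chr16:14523425-14527252, plus strand) moved the other way. Its level was 132.6, 136.3 and 131.3 CPM in the inhibitor libraries, against 131.6, 137.1 and 137.4 CPM in the inhibitor control libraries. The mimic libraries had 141.8, 135.7 and 148.3 CPM, against 136.4, 136.6 and 135.4 CPM in the mimic control libraries. High glucose libraries had 76.8, 75.3 and 84.7 CPM, against 77.2, 81.4 and 64.7 CPM in vehicle libraries. The 4 transfected groups overlapped one another and lay wholly above the untransfected groups, which overlapped each other. Snai2 rose by 0.79 ± 0.0643 on the log2 scale in the mimic control relative to high glucose (adjusted p = 5.64e-10) and by 0.78 ± 0.0642 in the inhibitor control (adjusted p = 7.78e-10). Per transcript length, Slug was the more abundant Snail factor in every group. Snai2 averaged 65.0 ± 1.33 FPKM (fragments scaled to transcript length and sequencing depth; SD, n = 3) and Snai1 0.857 ± 0.0404 FPKM in the inhibitor group. In high glucose Snai2 averaged 39.3 ± 3.05 FPKM and Snai1 9.42 ± 0.707 FPKM.

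Twist1 (chr12:34007645-34009828, plus strand) was nearly undetected, with 23 reads in the 18 libraries. The 12 transfected libraries held 4 of them, at most 1 a library, and the 6 untransfected libraries held 19. Pooled and scaled to library totals without TMM, this was 0.00946 CPM (exact 95% Poisson interval 0.00258 to 0.0242) in transfected and 0.0902 CPM (0.0543 to 0.141) in untransfected cells, intervals that cover counting error only. High glucose replicate 3 alone gave 8 reads, against 1 and 2 in the other high glucose libraries. Without the filter on low counts, edgeR's quasi-likelihood test gave adjusted p = 0.00344 for Twist1 in the mimic control against high glucose and 0.0215 in the inhibitor control against high glucose. No fold is given, because all 3 mimic control libraries and 2 of 3 inhibitor control libraries were at 0.

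Twist2 (chr1:91729176-91796542, plus strand) was graded across the groups. Its level was 5.15, 5.09 and 5.84 CPM in the inhibitor libraries, against 4.90, 4.38 and 4.42 CPM in the inhibitor control libraries. The mimic libraries had 8.78, 6.91 and 8.30 CPM, against 10.2, 11.3 and 9.12 CPM in the mimic control libraries. High glucose libraries had 18.02, 15.5 and 16.0 CPM, against 22.5, 20.1 and 23.2 CPM in vehicle libraries. From highest to lowest the order was vehicle, high glucose, mimic control, mimic, inhibitor and inhibitor control, and no 2 neighbouring groups overlapped. The share of all tested genes whose groups separate in this way is not reported here. Twist2 fell by 0.70 ± 0.0942 on the log2 scale in the mimic control relative to high glucose (adjusted p = 1.05e-06) and by 1.85 ± 0.101 in the inhibitor control (adjusted p = 1.09e-12). An antisense gene, Gm29100, shares 1484 exonic bases with Twist2. It had 1 to 6 reads a library. The strand setting of the counting is not stated in the sources used here, so how many reads of the 2 genes were mixed was not tested. The same limit holds for Snai1 and Vim, which share 206 and 586 exonic bases with the antisense genes Gm75792 and Gm54102, and for Zeb1 and Zeb2, which share 198 and 871 with Zeb1os1 and Zeb2os. Gm75792 and Gm54102 were not found by symbol among the deposited read counts.

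**Figure D1:**
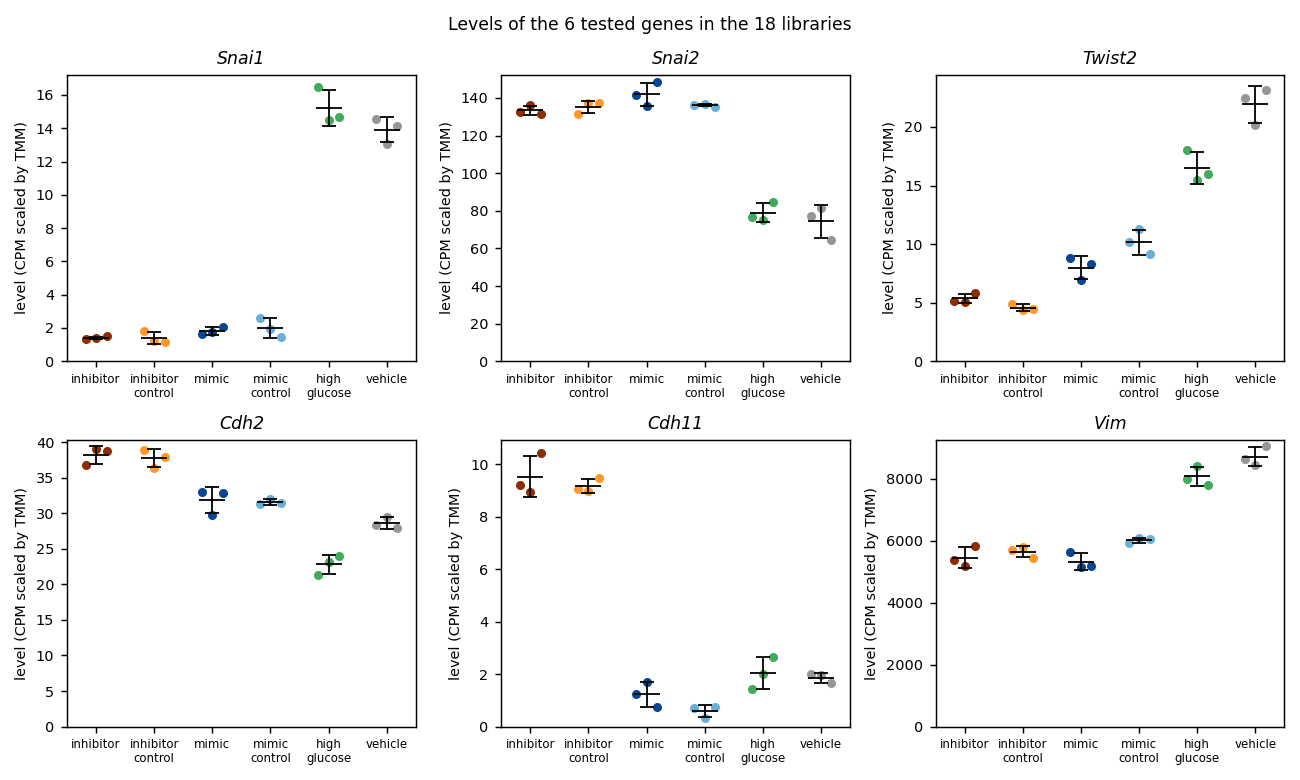
Level (CPM scaled by TMM, linear axes from 0) of the 6 tested genes in each of 18 libraries, 3 points a group, with the group mean and SD as bars. Snai1 lies at 1.18 to 2.62 CPM in the transfected libraries and at 13.1 to 16.5 CPM in the untransfected ones, and Cdh11 stands highest in the inhibitor and inhibitor control groups.

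Cdh1 (chr8:107329941-107396880, plus strand), the E-cadherin gene, was at the floor in every group. The inhibitor libraries held 0, 4 and 2 reads and the inhibitor control libraries 2, 5 and 1. The mimic libraries held 1, 0 and 1 reads and the mimic control libraries 2 each. High glucose libraries held 1, 1 and 3 reads and vehicle libraries 3, 2 and 3. The total of 35 reads amounts to 0.0552 CPM of the library totals, without TMM (exact 95% Poisson interval 0.0385 to 0.0768), and no order among the groups was detectable at this depth. The epithelial list was uneven: of 22 genes 20 were listed and 7 passed the filter, and their sum was 89.6 to 261.5 CPM a library. Most of that sum was the keratin Krt19, at 87.4 to 243.6 CPM, and the tight junction gene Ocln reached 15.1 CPM. In contrast, the adhesion molecule Epcam did not exceed 0.0309 CPM, the claudin Cldn4 0.0618 CPM and the splicing factor Esrp1 0.314 CPM.

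**Figure D2:**
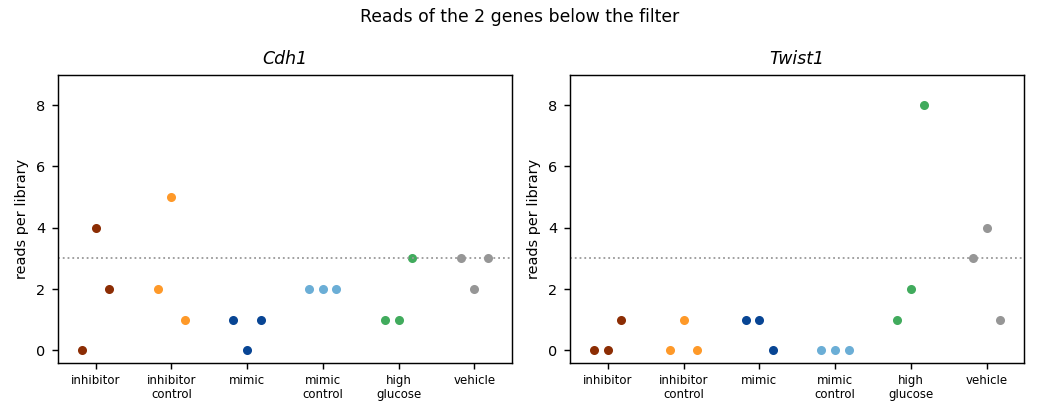
Reads of Cdh1 and Twist1, the 2 genes below the filter, in each of 18 libraries, with a dotted line at 3 reads, the floor. Cdh1 stays between 0 and 5 reads throughout, and the single Twist1 library far above the line is high glucose replicate 3 with 8 reads.

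Cdh2 (chr18:16700793-16942381, minus strand) was present in all libraries at moderate levels. It had 36.8, 39.0 and 38.8 CPM in the inhibitor libraries, against 38.9, 36.4 and 37.9 CPM in the inhibitor control libraries. The mimic libraries had 33.0, 29.8 and 32.9 CPM, against 31.3, 32.0 and 31.4 CPM in the mimic control libraries. High glucose libraries had 21.4, 23.2 and 24.0 CPM, against 28.3, 29.5 and 27.9 CPM in vehicle libraries. Each reagent overlapped its own control, while high glucose lay below every other group. Cdh2 rose by 0.47 ± 0.0548 on the log2 scale in the mimic control relative to high glucose (adjusted p = 1.45e-07) and by 0.72 ± 0.0543 in the inhibitor control (adjusted p = 1.72e-10). By FPKM, Cdh2 exceeded Cdh1 by 148.3 to 475.0 times in the 16 libraries where Cdh1 was above 0. That ratio is coarse, because Cdh1 had at most 5 reads a library and a rounded FPKM of at most 0.03. The 2 libraries without a Cdh1 read have no ratio.

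Cdh11 (chr8:103358726-103512687, minus strand) separated the inhibitor and inhibitor control groups from the mimic and mimic control groups. Its level was 9.23, 8.94 and 10.4 CPM in the inhibitor libraries, against 9.06, 8.98 and 9.48 CPM in the inhibitor control libraries. The mimic libraries had 1.25, 1.69 and 0.752 CPM, against 0.719, 0.318 and 0.742 CPM in the mimic control libraries. High glucose libraries had 1.45, 1.99 and 2.65 CPM, against 1.99, 1.95 and 1.64 CPM in vehicle libraries. The inhibitor pair lay above the other 4 groups without overlap, mimic and mimic control did not overlap each other, and high glucose, vehicle and mimic followed in overlapping order. Relative to high glucose, Cdh11 rose by 2.17 ± 0.211 on the log2 scale in the inhibitor control (adjusted p = 9.41e-09) and fell by 1.76 ± 0.278 in the mimic control (adjusted p = 7.79e-06). By FPKM, Cdh2 was 4.1 to 4.82 times Cdh11 in the inhibitor libraries and 4.41 to 4.75 times in the inhibitor control libraries. The ratio was 19.7 to 47.4 in the mimic libraries and 49.9 to 117.7 in the mimic control libraries. It was 10.1 to 16.7 in high glucose and 15.9 to 18.3 in vehicle. In the mimic control the ratio is coarse, because Cdh11 stood at 0.03 to 0.07 FPKM there, on 10 to 25 reads a library.

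Among 19 other cadherin genes, 18 were listed and 8 passed the filter. Per length, M-cadherin (Cdh15), an adhesion gene of skeletal myoblasts, was above Cdh2 in every group. Cdh15 averaged 17.4 ± 0.577 FPKM in the inhibitor and 16.3 ± 1.29 FPKM in the inhibitor control group. The mimic group averaged 10.2 ± 0.243 FPKM and the mimic control 12.8 ± 0.134 FPKM. High glucose averaged 56.9 ± 0.66 FPKM and vehicle 42.2 ± 0.53 FPKM. T-cadherin (Cdh13), a cadherin held by a lipid anchor, showed the same split by transfection, at 1.58 to 4.45 FPKM in transfected and 20.4 to 24.7 FPKM in untransfected libraries. Cdh22 ran against it, at 4.37 to 4.71 FPKM in the mimic and 5.59 to 6.03 FPKM in the mimic control, with at most 1.43 FPKM in the inhibitor pair and 0.15 FPKM in untransfected cells. Cdh5, the endothelial cadherin, stayed at or below 0.636 CPM.

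**Figure D3:**
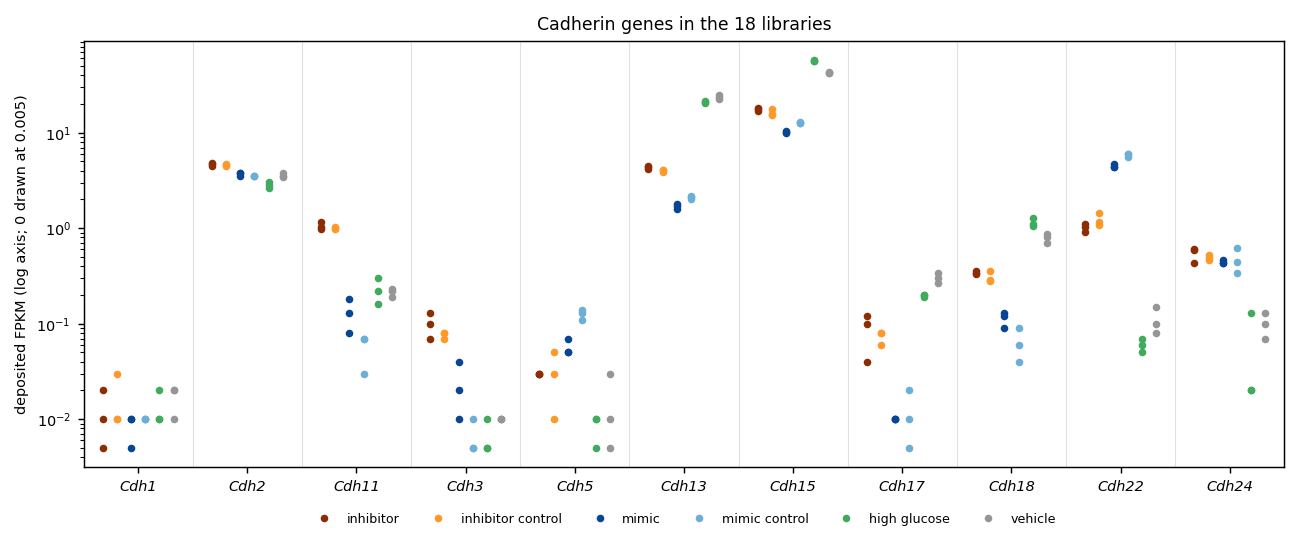
Deposited FPKM of 11 cadherin genes in each of 18 libraries on a log axis, with values of 0 drawn at 0.005. Cdh15 and Cdh13 are the most abundant in untransfected cells, Cdh1 stays at or below 0.03 FPKM, and Cdh11 reaches 0.99 FPKM or more in the inhibitor and inhibitor control groups only.

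Vim (chr2:13578738-13587639, plus strand) was among the most abundant transcripts, taking 0.491% to 0.929% of the reads and ranking 7 to 22 of 28907 genes by FPKM. Its level was 5382.7, 5162.5 and 5811.5 CPM in the inhibitor libraries, against 5698.5, 5790.8 and 5446.3 CPM in the inhibitor control libraries. The mimic libraries had 5624.1, 5157.2 and 5187.3 CPM, against 5914.3, 6069.3 and 6037.0 CPM in the mimic control libraries. High glucose libraries had 7996.5, 8412.6 and 7795.2 CPM, against 8632.6, 8447.2 and 9048.5 CPM in vehicle libraries. Transfected libraries lay below untransfected ones, mimic lay below mimic control, and high glucose lay just below vehicle. Vim fell by 0.43 ± 0.0523 on the log2 scale in the mimic control relative to high glucose (adjusted p = 2.77e-07) and by 0.52 ± 0.0524 in the inhibitor control (adjusted p = 1.88e-08). Between the highest and the lowest group mean, Vim spanned 0.71 and Cdh2 0.74 on the log2 CPM scale. The span was 3.96 for Cdh11, 3.40 for Snai1, 2.25 for Twist2 and 0.94 for Snai2.

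High glucose was set against vehicle to see what glucose did without an oligonucleotide. N-cadherin and Twist2 transcripts were lower in high glucose, and the other 4 tested members did not pass the threshold. Of the 6 tested members 2 were called (adjusted p under 0.05), both lower, where 24.2% of all tested genes were called, 12% higher and 12.2% lower. Twist2 averaged 16.5 ± 1.35 CPM in high glucose, against 21.9 ± 1.59 CPM in vehicle (SD, n = 3 each), and fell by 0.41 ± 0.0899 on the log2 scale (edgeR adjusted p = 0.00213). Cdh2 averaged 22.9 ± 1.33 CPM in high glucose, against 28.6 ± 0.849 CPM in vehicle, and fell by 0.32 ± 0.0547 (edgeR adjusted p = 0.000202). Snai1 differed by 0.13 (95% interval -0.15 to 0.41), Snai2 by 0.08 (-0.06 to 0.23) and Cdh11 by 0.13 (-0.38 to 0.63), each with an edgeR adjusted p of 0.39 or more. For Vim the difference was -0.11 (-0.22 to 0.00343, edgeR adjusted p = 0.14).

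The genes around them moved in both directions in high glucose. Of 7 tested epithelial genes 3 were lower and none higher: Krt19 fell by 0.98 ± 0.0800, the desmosome gene Pkp3 by 1.46 ± 0.306 and Ocln by 0.59 ± 0.116. Pkp3 was near the floor, at 0.185 to 1.01 CPM over all libraries. Of 11 catenins and junction partners 5 were lower and none higher, among them Jup, which encodes plakoglobin (fell by 0.57 ± 0.0774), and Vcl, which encodes vinculin (fell by 0.20 ± 0.0493). Of 18 mesenchymal genes 5 were higher and 3 lower, with a median log2 fold change of 0.08 against 0 over all tested genes. Without vehicle replicate 1, vehicle replicate 3 or high glucose replicate 1, 1 was lower. Tenascin (Tnc) rose by 0.56 ± 0.0701 and the type I collagen gene Col1a2 by 0.51 ± 0.0648. Of 10 other transcription factors of the transition 4 were higher and 2 lower, or 1 lower without vehicle replicate 1 or 3 or high glucose replicate 1 or 3. Zeb2 was higher by 0.97 ± 0.0664 and Zeb1 by 0.81 ± 0.0614. Skeletal myoblast markers were higher alongside, 7 of 7 tested with a median of 0.70, and 5 to 7 when 1 library was left out. Myh3, an embryonic myosin, rose by 1.26 ± 0.109, the myogenic factor Myog by 0.92 ± 0.239 and Myf5 by 0.76 ± 0.0834. Their summed level overlapped between the groups, with high glucose libraries at 5037.8 to 6309.2 CPM, against 4561.7 to 5412.5 CPM in vehicle libraries. Of 6 tested fibroblast markers 2 were higher and none lower, and their sum did not overlap, with high glucose libraries at 1930.2 to 2293.5 CPM, against 1598.1 to 1763.7 CPM in vehicle libraries. No marker of macrophages, cardiomyocytes or endothelium was called, of 10, 6 and 4 tested (1 cardiomyocyte marker was lower without vehicle replicate 2). The part of these markers in the other changes was not tested. All of the changes named here had an edgeR adjusted p under 0.05.

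The mimic was set against its own control to ask what added miR-200a-3p activity did. Cdh11 was higher and Twist2 and Vim were lower with the mimic, but all 3 calls were lost without mimic replicate 2, the library with macrophage transcripts. Of 6 tested members 1 was called higher and 2 lower, where 33.7% of all tested genes were called, 15.8% higher and 18% lower. Cdh11 averaged 1.23 ± 0.470 CPM in the mimic and 0.593 ± 0.238 CPM in the mimic control (SD, n = 3 each), and rose by 1.04 ± 0.297 on the log2 scale (edgeR adjusted p = 0.0111). Twist2 averaged 8.0 ± 0.972 CPM in the mimic and 10.2 ± 1.07 CPM in the mimic control, and fell by 0.35 ± 0.0986 (edgeR adjusted p = 0.0109). Vim averaged 5322.9 ± 261.3 CPM in the mimic and 6006.9 ± 81.8 CPM in the mimic control, and fell by 0.17 ± 0.0522 (edgeR adjusted p = 0.0147). Without mimic replicate 2 none of the 6 members was called: Cdh11 was at 0.74 (edgeR adjusted p = 0.0882), Twist2 at -0.26 (edgeR adjusted p = 0.0559) and Vim at -0.16 (edgeR adjusted p = 0.0606). Without mimic control replicate 2, Cdh11 was at 0.74 (edgeR adjusted p = 0.0643) and Twist2 at -0.28 (edgeR adjusted p = 0.0614). Over all alternatives the adjusted p ran from 4.05e-05 to 0.0969 for Cdh11, from 0.00161 to 0.0614 for Twist2 and from 0.00041 to 0.192 for Vim.

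Snai2, the only member with a 7-base seed match, differed by 0.06 between mimic and mimic control (95% interval -0.08 to 0.20, edgeR adjusted p = 0.506). Snai1 differed by -0.14 (-0.53 to 0.25, edgeR adjusted p = 0.596) and Cdh2 by 0.01 (-0.10 to 0.13, edgeR adjusted p = 0.872). Zeb1, whose 3′ UTR held 4 matches of 7 bases, differed by -0.05 (-0.19 to 0.09, edgeR adjusted p = 0.593). Zeb2, whose 3′ UTR as searched here held no match of 6 bases or more, rose by 0.58 ± 0.0656 (edgeR adjusted p = 5.61e-06). Its rise was 0.53 to 0.59 when 1 library was left out.

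Among the neighbouring genes, the mesenchymal list leaned to lower values with the mimic. Of its 18 genes 1 was higher and 8 lower (median -0.18 against 0 over all tested genes), and without mimic replicate 2, 0 were higher and 5 lower. Without mimic replicate 1 or mimic control replicate 3, 2 were higher. Smooth muscle actin (Acta2) fell by 0.44 ± 0.0542, the fibronectin receptor chain Itga5 by 0.41 ± 0.0603 and Tnc by 0.38 ± 0.0721. Of 7 tested epithelial genes 0 were higher and 1 was lower, Krt19 (fell by 0.68 ± 0.0805). The epithelial list summed to 89.6 to 108.6 CPM in the mimic and 153.3 to 160.3 CPM in the mimic control. Of 10 other transcription factors of the transition 3 were higher and 1 lower, with Tcf4 higher by 0.34 ± 0.0811 and Sox9 lower by 0.29 ± 0.0673. Both lists gave the same counts without mimic replicate 2. Of 11 catenins and junction partners none was higher and 6 were lower, among them Jup (fell by 0.80 ± 0.117) and Vcl (fell by 0.36 ± 0.0495), and without mimic replicate 2, 1 was higher and 5 were lower. Of 9 filament and lamin partners of vimentin none was higher and 4 were lower, 3 of 9 without mimic replicate 2. Plectin (Plec), which links vimentin to other cell structures, fell by 0.64 ± 0.0890 and the lamin gene Lmna by 0.55 ± 0.0578. Of 24 cofactors, partners and turnover factors of Snail and Twist 7 were higher and 3 lower, 5 and 3 without mimic replicate 2, with 4 higher without mimic replicate 3. Loxl2, an enzyme that binds Snail, fell by 0.34 ± 0.0775, and Btrc, an F-box protein that marks Snail for degradation, fell by 0.29 ± 0.0644. Fbxl5, another F-box gene of this list, went the other way and rose by 0.50 ± 0.133. Id2, an inhibitor of helix-loop-helix factors, had 2.32 ± 0.707 in the fit with all libraries and -0.24 without mimic replicate 2, where it stood at 6.12 CPM against 0.347 to 0.428 CPM in the other mimic libraries. Without mimic control replicate 2 its edgeR adjusted p was 0.0622. With all libraries, each gene named from these lists had an edgeR adjusted p under 0.05. Apart from Id2, their values without mimic replicate 2 are not reported here.

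Markers of other cell types also differed between mimic and mimic control. Skeletal myoblast markers summed to 1343.3 to 1468.6 CPM in the mimic and 1625.9 to 1678.8 CPM in the mimic control, with 2 of 7 tested markers higher and 3 lower (2 and 2 without mimic replicate 2, and 1 higher without mimic replicate 1 or mimic control replicate 3). Fibroblast markers summed to 496.2 to 523.2 CPM in the mimic and 568.3 to 578.7 CPM in the mimic control, with 2 of 6 tested markers lower and none higher. Leaving out mimic replicate 2 or 3 or any mimic control library gave 1 lower, and leaving out mimic replicate 1 or mimic control replicate 3 gave 1 higher. Neither sum overlapped between the 2 groups, with or without mimic replicate 2. Macrophage markers were higher for 8 of 10 tested, and without mimic replicate 2 for 0 of 10, with 2 lower. Of 6 tested cardiomyocyte markers 2 were higher and 2 lower, 1 and 2 without mimic replicate 2, and their sum was 37.8 to 39.5 CPM in the mimic and 34.4 to 35.0 CPM in the mimic control. Leaving out mimic replicate 3 or a mimic control library gave 1 lower, and leaving out mimic control replicate 1 also gave 1 higher. Of 4 endothelial markers 1 was lower, and 0 without mimic replicate 1 or mimic control replicate 1 or 2 (1 higher without the last). The part of these markers in the other changes was not tested.

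The inhibitor was set against its own control to ask what blocking miR-200a-3p did. None of the 6 tested members was called, and 0% of all tested genes were called by edgeR's quasi-likelihood test or by DESeq2, with 447 genes (2.97%) at an unadjusted p under 0.05. The largest difference among the members was that of Twist2, at 5.36 ± 0.420 CPM in the inhibitor and 4.56 ± 0.288 CPM in the inhibitor control (SD, n = 3 each). Its log2 fold change was 0.23 (95% interval -0.00670 to 0.47, edgeR adjusted p = 1), although the 2 groups did not overlap. Snai1 differed by -0.00744 (-0.42 to 0.41), Snai2 by -0.02 (-0.16 to 0.12), Cdh2 by 0.02 (-0.10 to 0.13), Cdh11 by 0.06 (-0.35 to 0.46) and Vim by -0.05 (-0.16 to 0.06), each with an edgeR adjusted p of 1. These intervals bound what this depth and number of libraries could show, and a p above the threshold does not show that the groups were alike. No gene of the cadherin, catenin, epithelial, mesenchymal or transcription factor lists was called, and their median log2 fold changes lay between -0.18 and 0.12.

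The effect of the mimic minus the effect of the inhibitor, each against its own control, was tested as 1 contrast. Of the 6 tested members 1 was called, Twist2, where 13.2% of all tested genes were called, 4.63% higher and 8.59% lower. The contrast was -0.58 ± 0.147 on the log2 scale (edgeR adjusted p = 0.0147), with Twist2 lower in mimic than in mimic control and its mean higher in inhibitor than in inhibitor control. It stayed called in all 20 alternatives, with adjusted p of 0.000823 to 0.046. For Cdh11 the contrast was 0.98 ± 0.352 (edgeR adjusted p = 0.0698).

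**Figure D4:**
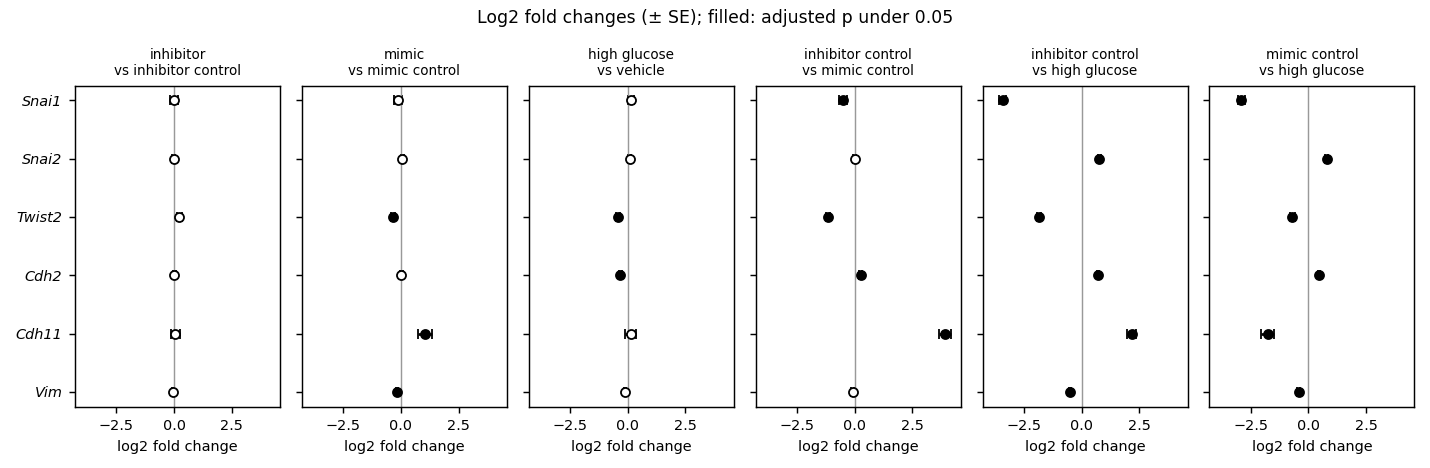
Log2 fold changes (± SE) of the 6 tested genes in 6 comparisons, first-named group over second, with filled points for an adjusted p under 0.05. All points of the inhibitor comparison are open, and Snai1 lies at -3.42 and -2.92 in the comparisons of the negative controls with high glucose.

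Each negative control was set against high glucose to see what came with transfection itself. In both, Snai1, Twist2 and Vim were lower and Snai2 and Cdh2 were higher, and Cdh11 was higher in the inhibitor control and lower in the mimic control. All 6 tested members were called in the mimic control, 2 higher and 4 lower, where 78.9% of all tested genes were called, 39% higher and 39.9% lower. All 6 were also called in the inhibitor control, 3 higher and 3 lower, where 79.5% of all tested genes were called, 40.1% higher and 39.3% lower. The members' share therefore says little beyond the background. Both comparisons share the high glucose libraries, and transfection cannot be told apart from any other difference between the cultures.

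In the mimic control, 2 of 18 mesenchymal genes were higher and 14 lower than in high glucose, with a median of -1.68 against 0.01 over all tested genes. In the inhibitor control 3 were higher and 12 lower, with a median of -1.12 against 0.04. The type III collagen gene Col3a1 averaged 605.7 ± 7.71 CPM in the mimic control, 1550.0 ± 43.4 CPM in the inhibitor control and 9169.5 ± 542.0 CPM in high glucose (SD, n = 3 each). Pdgfra, a growth factor receptor of mesenchymal cells, fell by 3.98 ± 0.0858 in the mimic control and by 2.68 ± 0.0768 in the inhibitor control. Tagln, an actin-binding gene of smooth muscle, rose by 3.32 ± 0.110 in the inhibitor control. Fap, a protease of activated fibroblasts, stood at 0 to 0.0575 CPM in the mimic control, under the floor, and at 3.01 to 3.90 CPM in high glucose. Of 10 other transcription factors of the transition, 0 were higher and 8 lower in the mimic control, and 2 were higher and 8 lower in the inhibitor control. Prrx1, a homeobox factor of mesenchyme, fell by 3.21 ± 0.0497 in the mimic control and by 2.41 ± 0.0472 in the inhibitor control. Zeb1 fell by 1.68 ± 0.0638 in the mimic control and by 1.01 ± 0.0619 in the inhibitor control. Zeb2 rose by 0.49 ± 0.0654 in the inhibitor control and fell by 0.19 ± 0.0656 in the mimic control (edgeR adjusted p = 0.0114), a call lost without high glucose replicate 3 (-0.12, edgeR adjusted p = 0.102) and without mimic control replicate 3 (-0.17, edgeR adjusted p = 0.0508).

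Markers of other cell types moved with these comparisons. The summed level of 8 fibroblast markers, 5 of which are also in the mesenchymal list, was 568.3 to 578.7 CPM in the mimic control, 848.9 to 888.0 CPM in the inhibitor control and 1930.2 to 2293.5 CPM in high glucose. For 8 skeletal myoblast markers it was 1625.9 to 1678.8 CPM in the mimic control, 1312.3 to 1378.1 CPM in the inhibitor control and 5037.8 to 6309.2 CPM in high glucose. For 12 cardiomyocyte markers it was 34.4 to 35.0 CPM in the mimic control, 79.5 to 94.5 CPM in the inhibitor control and 63.0 to 75.8 CPM in high glucose. For 6 endothelial markers it was low throughout, at 6.12 to 6.8 CPM in the mimic control, 1.24 to 1.55 CPM in the inhibitor control and 0.794 to 1.49 CPM in high glucose. Of 4 tested, 3 were higher in the mimic control (median 2.91) and 2 in the inhibitor control (median 1.44; 1 without high glucose replicate 1). In the mimic control Vwf, the von Willebrand factor gene, rose by 2.97 ± 0.238 (edgeR adjusted p = 4.09e-10), and Cdh5 and the growth factor receptor gene Kdr, which did not exceed 0.636 and 0.492 CPM in any library, were called higher too. Their part in the members' differences was not tested.

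By gene count, epithelial genes did not rise as a group in the transfected controls, but their summed level was higher in both. The list, most of it Krt19, summed to 153.3 to 160.3 CPM in the mimic control and 150.4 to 163.6 CPM in the inhibitor control. In high glucose it summed to 119.0 to 134.9 CPM. Of 7 tested epithelial genes, 1 was higher in the mimic control, Krt19 (rose by 0.42 ± 0.0800), and 3 were lower. In the inhibitor control 2 were higher (1 without high glucose replicate 2) and 3 lower. The list counts here are to be read against the shares of all tested genes. Those were 39% higher and 39.9% lower in the mimic control, and 40.1% higher and 39.3% lower in the inhibitor control. Ocln fell by 4.95 ± 0.178 in the mimic control and by 2.56 ± 0.137 in the inhibitor control. Among catenins and junction partners, 5 of 11 were higher and 4 lower in the mimic control, and 3 were higher and 7 lower in the inhibitor control. Jup fell by 3.26 ± 0.0941 in the mimic control and by 3.09 ± 0.0920 in the inhibitor control. Arvcf, a catenin of the p120 family, fell by 2.32 ± 0.0558 in the mimic control and by 3.01 ± 0.0582 in the inhibitor control. Among filament and lamin partners of vimentin, 3 of 9 were higher and 4 lower in each control. Synm, which encodes synemin, fell by 4.55 ± 0.125 in the mimic control and by 4.35 ± 0.121 in the inhibitor control. Desmin (Des) fell by 1.91 ± 0.0766 in the mimic control and by 2.31 ± 0.0777 in the inhibitor control. The lamin gene Lmnb1 rose by 2.49 ± 0.0601 in the mimic control and by 2.31 ± 0.0599 in the inhibitor control. Of 24 cofactors and turnover factors, 9 were higher and 13 lower in the mimic control, and 9 were higher and 10 lower in the inhibitor control. Id3, which restrains helix-loop-helix factors, fell by 2.99 ± 0.211 in the mimic control and by 2.13 ± 0.194 in the inhibitor control. Each of these named changes had an edgeR adjusted p under 0.05.

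The 2 negative controls, both transfected in high glucose, were set against each other because both stand for transfection without a miR-200a-3p reagent. Cdh11 was far higher in the inhibitor control, Cdh2 was a little higher, and Twist2 and Snai1 were lower. Of 6 tested members 2 were higher and 2 lower, where 74.2% of all tested genes were called, 38.5% higher and 35.7% lower. Cdh11 averaged 9.17 ± 0.269 CPM in the inhibitor control and 0.593 ± 0.238 CPM in the mimic control (SD, n = 3 each), a 15.3-fold difference (log2 fold change 3.93 ± 0.252, edgeR adjusted p = 2.23e-11), larger than that of all but 1.68% of tested genes. Twist2 averaged 4.56 ± 0.288 CPM in the inhibitor control and 10.2 ± 1.07 CPM in the mimic control, and fell by 1.16 ± 0.104 (edgeR adjusted p = 3.99e-09). Cdh2 rose by 0.26 ± 0.0535 (edgeR adjusted p = 0.000227). Snai1 fell by 0.50 ± 0.184 (edgeR adjusted p = 0.0199). That call was lost without inhibitor control replicate 2 (edgeR adjusted p = 0.075), inhibitor control replicate 3 (edgeR adjusted p = 0.0781) or mimic control replicate 1 (-0.26, edgeR adjusted p = 0.206). It was also lost with upper quartile scaling (-0.39, edgeR adjusted p = 0.0605). With limma it was lost on log2(FPKM + 1) (limma adjusted p = 0.119) and on log2(FPKM + 0.1) (limma adjusted p = 0.094). Over all alternatives the adjusted p of Snai1 ran from 0.00149 to 0.206. Snai2 differed by -0.00835 (95% interval -0.15 to 0.13, edgeR adjusted p = 0.915) and Vim by -0.09 (-0.20 to 0.02, edgeR adjusted p = 0.129), and both signs turned with upper quartile scaling, which moves the median of all genes by 0.11 here.

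By gene count, the mesenchymal list was mostly higher in the inhibitor control than in the mimic control. Of its 18 genes 11 were higher and 5 lower, with a median of 0.58 against 0.04 over all tested genes. The summed level of the list was not higher, at 8753.7 to 9238.2 CPM in the inhibitor control and 9151.2 to 9546.1 CPM in the mimic control. Pdgfrb, a growth factor receptor of mesenchymal cells, rose by 2.35 ± 0.0740 and Postn, which encodes the matrix protein periostin, by 2.49 ± 0.333. Postn did not exceed 1.94 CPM in any library. Of 10 other transcription factors of the transition 6 were higher and 4 lower (2 lower without inhibitor control replicate 2), with Tcf4 higher by 1.90 ± 0.0777, Zeb2 by 0.68 ± 0.0657, Zeb1 by 0.67 ± 0.0638 and Sox9 lower by 1.47 on the log2 scale. Of 11 catenins and junction partners 1 was higher (2 without inhibitor control replicate 3) and 8 lower, with the nectin gene Nectin2 falling by 1.15 ± 0.0693. Of 8 tested cadherins outside the members 5 were higher and 2 lower, and Cdh22 fell by 2.38 ± 0.103. Of 9 filament and lamin partners 3 were higher and 4 lower, with Lmna falling by 1.35 ± 0.0587. Of 7 tested epithelial genes 3 were higher and 1 lower. Of 7 tested skeletal myoblast markers 5 were higher and 2 lower, though their sum was lower, at 1312.3 to 1378.1 CPM against 1625.9 to 1678.8 CPM. Of 6 tested fibroblast markers 4 were higher and 1 lower, and of 6 cardiomyocyte markers 3 were higher and 2 lower. Of 4 endothelial markers 1 was higher and 2 lower. The part of these markers in the other differences was not tested. The named genes had an edgeR adjusted p under 0.05.

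**Figure D5:**
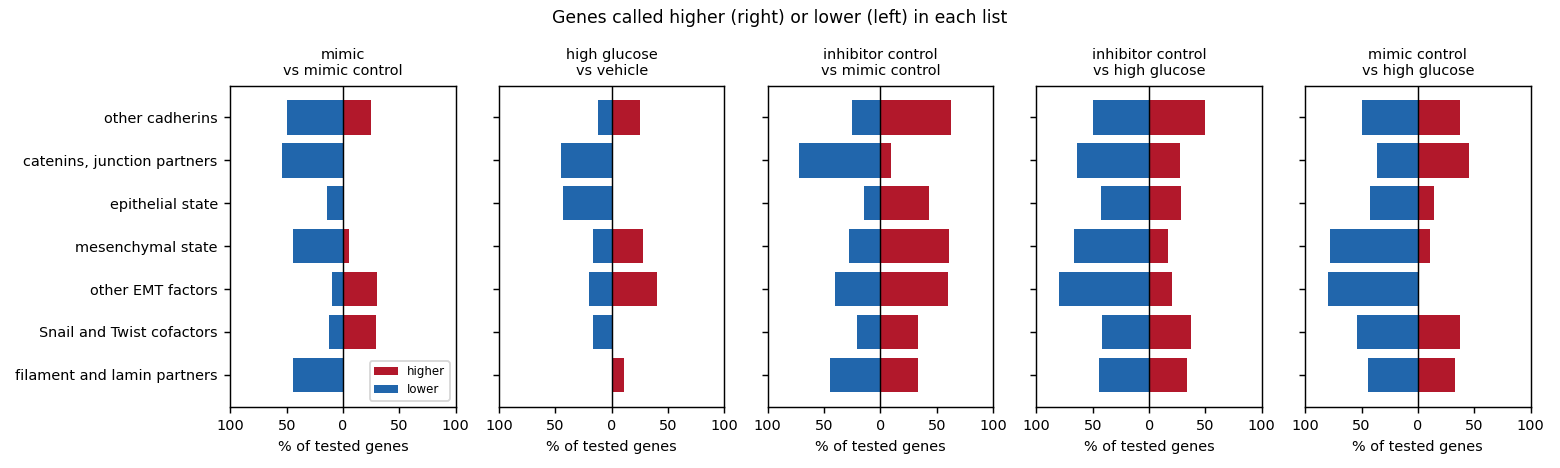
Share of tested genes of 7 lists called higher (right) or lower (left) in 5 comparisons, first-named group over second. The mesenchymal list has 14 of 18 genes lower in the mimic control against high glucose and 11 of 18 higher in the inhibitor control against the mimic control.

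The genes whose pattern over the 6 group means was closest were sought for the 3 members that spanned at least 1 on the log2 scale, by the root mean square difference of centred log2 CPM among 12981 genes. For Snai1 they were Sik1 (0.0576), Per3 (0.0648) and Azin2 (0.0711). For Twist2 they were Angel1 (0.0965), Pbx3 (0.106) and Map1lc3a (0.111). For Cdh11 the nearest were farther off, with Setbp1 at 0.207 and Palm3 and Klhl33 at 0.229. With log2(FPKM + 1) in place of CPM, 1 of the 3 neighbours was kept for Snai1 and 0 for Twist2 and Cdh11.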

How the data were processed

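The authors deposited raw read counts per gene and FPKM values for 18 libraries. Library preparation used a stranded mRNA kit, per the labels' protocols, and reads were paired, 150 nt each. Trimming with FASTX-Toolkit 0.0.13 removed reads with more than 2 N bases or under 16 nt. Alignment to GRCm39 was by HISAT2 with up to 4 mismatches, and both tables rest on reads that mapped to 1 place. The submitters' processing notes also name DESeq2, with no role. The sources used here do not give the counting program, annotation release or strand setting.

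Counts were tested in R 4.3.3 with edgeR 4.0.16. filterByExpr (minimum count 10, minimum total 15) left 15074 genes. After TMM scaling, 1 quasi-likelihood fit covered all 18 libraries with group as its term, which left 12 residual degrees of freedom. Benjamini-Hochberg adjustment ran over all tested genes. Each SE was the size of the log2 fold change divided by the square root of the F statistic of the test. The 95% intervals used this SE with 12 degrees of freedom, whereas the test adds degrees of freedom from the spread of other genes. An interval can therefore reach 0 where edgeR's unadjusted p is under 0.05. This was so for Twist2 with the inhibitor (edgeR unadjusted p = 0.0475) and Vim in high glucose (edgeR unadjusted p = 0.0479). Alternatives were other scalings, no filter, a replicate block, DESeq2 1.42.0, limma 3.58.1 on log2(FPKM + 1) and log2(FPKM + 0.1), the compared groups alone, and each library left out. The test was also run on simulated data in which all genes shared the same spread and genes differed in the mimic group only. Those settings are simpler than these data, so that run does not vouch for the calls made here. Replicate libraries differed by more than sampling noise, at a chi-square of 4.37 to 26.1 per degree of freedom. Genes were placed on GENCODE's GRCm39 annotation. Of each described list, up to 4 called genes with the largest change could be named, or 2 with the smallest p where none was called. Members and lists were chosen with earlier results of these data known. Some genes that met the naming rule are not reported here.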

Additional observations from a re-analysis of the deposited data

Results flagged for a closer look

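Twist2 differed between the reagents. The mimic effect less the inhibitor effect, each against its own control, was -0.58 on the log2 scale (edgeR adjusted p = 0.0147). Twist2 averaged 8.0 CPM in the mimic and 10.2 CPM in the mimic control, with all 3 mimic libraries lower. It averaged 5.36 CPM in the inhibitor and 4.56 CPM in the inhibitor control, with all 3 inhibitor libraries higher. The inhibitor difference alone was not called, at 0.23 on the log2 scale (95% interval -0.00670 to 0.47). The share of all tested genes whose libraries separate in this way is not reported here. In the contrast 1 of 6 tested members was called, where 13.2% of all tested genes were called. Without mimic replicate 2, the library with macrophage transcripts, the Twist2 contrast was -0.49 (edgeR adjusted p = 0.0315).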

How the results depend on the processing

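The directions and calls of all 6 tested members against high glucose held under every alternative, as did Twist2 and Cdh2 in high glucose against vehicle. In the mimic comparison 3 members were called with all libraries, 1 with limma on log2(FPKM + 1), and 0 to 3 when 1 library was left out. For the mimic effect minus the inhibitor effect 1 member was called, 2 without the filter on low counts and with DESeq2, where Cdh11 was called too, and 1 to 2 when 1 library was left out; the number of genes called there was 1993, and 1244 to 2207 with 1 library left out. For the inhibitor 0 genes were called, 26 without the filter and 1 with the compared groups alone. Of the genes called with the mimic, 46.7% were higher, and 61.3% and 63.5% with limma on log2(FPKM + 1) and log2(FPKM + 0.1). In the contrast of the reagents 35% were higher, 47.2% with upper quartile scaling, 46.7% without the filter and 49.5% and 53.1% with limma. The ratio of highest to lowest Vim group mean was 1.64 by CPM and 1.76 by FPKM. The causes of these shifts were not tested.

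Sign changes were seen in uncalled values near 0 and in Id2. In the mimic comparison, Cdh2 was at -0.0049 with the RLE size factors and -0.0048 with DESeq2, and Zeb1 at 0.02 with limma. In the inhibitor comparison, Snai1 was at 0.0063 and 0.02 with limma. Between the negative controls, Snai2 was at 0.10 and Vim at 0.02 with upper quartile scaling, and with limma Snai2 was at 0.12 and 0.13 and Vim at 0.04. In the contrast of the reagents, Cdh2 was at 0.02 with upper quartile scaling, 0.05 and 0.06 with limma and 0.0083 with the compared groups alone. With 1 library left out, high glucose against vehicle gave -0.0045 to 0.16 for Snai2 and -0.11 to 0.33 for Cdh11. The mimic comparison gave -0.33 to 0.11 for Snai1, -0.02 to 0.05 for Cdh2 and -0.24 to 2.82 for Id2. The inhibitor comparison gave -0.12 to 0.22 for Snai1, -0.01 to 0.04 for Cdh2, -0.01 to 0.10 for Cdh11 and -0.04 to 0.01 for Zeb2. The contrast of the reagents gave -0.36 to 0.12 for Snai1 and -0.04 to 0.04 for Cdh2.

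Replicate numbers did not pair the libraries, since deviations of same-numbered libraries correlated at -0.174 to 0.103; only for the inhibitor control and high glucose did 6 of 6 libraries correlate best with their own number. With a replicate block, 3500 genes were called in high glucose against vehicle, 4883 with the mimic, 0 with the inhibitor, 11844 in the mimic control and 11950 in the inhibitor control against high glucose, 11146 between the controls and 1816 in the contrast of the reagents. With 3 libraries a group, differences smaller than the intervals given could not be detected, and counts near the floor of 3 reads (Cdh1, Twist1) limit those genes.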
